A study of Mus musculus with 12 samples.

Results

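The genes described here are 10 members of the JAK-STAT signalling system, taken by symbol from a table of 19910 genes in mouse bone marrow cells. They are Osm, which encodes the cytokine oncostatin M; Stat3, Stat5a and Stat5b, which encode transcription factors; Socs1, Socs2, Socs3 and Cish, which encode feedback inhibitors; and Pim1 and Pim2, which encode serine/threonine kinases. All 10 passed the filter on low counts that left 10993 genes for testing. RNA was sequenced from marrow of female C57BL/6J mice aged 6 to 10 weeks that had been transduced with retrovirus, and the labels call the cells leukemia cells. Every library carries a pair of vectors: empty with empty (called empty here), mutant SETBP1 (D868N) with empty (SETBP1), empty with mutant NRAS (G12D) (NRAS), or SETBP1 (D868N) with NRAS (G12D) (both). Each of the 4 groups has 3 libraries. The retrovirus was made in 293T17 cells, a human embryonic kidney line, and collected at 48 and 72 h. No label says whether replicates were separate mice or cultures, so the p-values measure only the spread between these libraries, which may be technical.

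When a blood cytokine binds its receptor, Janus kinases bound to the receptor phosphorylate STAT proteins, which move to the nucleus and switch on their targets. Among the classical targets of STAT5 and STAT3 are the genes for the SOCS proteins and CIS (the product of Cish), which bind the receptor or the kinase and damp the signal, and the genes for the Pim kinases, which promote growth and survival. Oncostatin M belongs to the interleukin-6 family and signals through the shared receptor chain gp130, and its own gene is a known STAT5 target in blood cells. Mutant NRAS acts on the parallel RAS-MAPK branch below the same receptors. The series title is about the MAPK pathway, and the values below describe genes of the STAT branch in the same libraries.

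Library totals ran from 7085894 to 8864919 counts. Nras stood at 81.4 to 96.5 CPM (counts scaled to a common library total) in the 6 libraries without the NRAS vector and at 1393 to 1680 CPM in the 6 with it. Counts of Setbp1 were 0 in the 6 libraries without its vector, 5 to 7 with SETBP1 and 11 to 17 with both, which is too few to measure it. SETBP1 replicate 3 stood apart: its log2 CPM correlated with the rest of its group at 0.946 to 0.953 across genes, against 0.984 to 0.991 for the other pairs within groups. Genes with a long summed exon length tended to be low in that library. With genes in 4 bins by summed exon length, the median log2 ratio of replicate 3 to the mean of replicates 1 and 2 was -0.358 in the longest bin (6829 bases and over) and 0.235 in the shortest (2857 bases and under). Because all groups share 1 estimate of the spread, this library also enters the errors of comparisons without the SETBP1 group. Most SEs below were larger with it in the fit (those of Pim2 against SETBP1, and for SETBP1 against empty, were slightly smaller), and results that turn on it are given with and without it. The 5 markers of blood cells (Ptprc, Cd53, Coro1a, Laptm5, Spi1) were present in every group, at summed levels of 3101 to 4157 normalised CPM. Of 6 B-cell markers 1 passed the filter, as did 1 of 6 T-cell and 1 of 7 stromal markers.

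**Figure D1:**
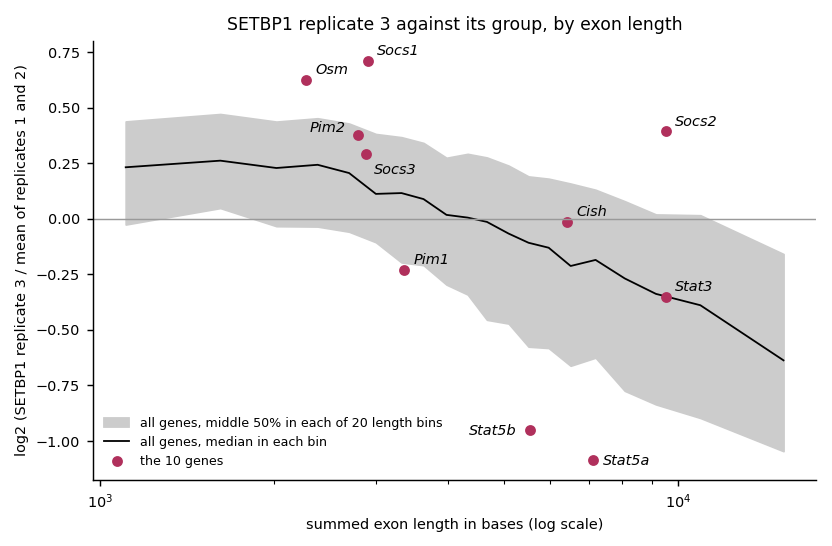
Log2 ratio of SETBP1 replicate 3 to the mean of SETBP1 replicates 1 and 2 (vertical axis) against summed exon length in bases on a log scale (horizontal axis), for all genes (median line and middle 50% band in 20 length bins) and the 10 genes (points). The median falls with length, Stat5a (-1.08) and Stat5b (-0.95) lie far below the band and Pim1 (-0.229) at its lower edge, and Socs1 (0.713), Osm (0.628) and Socs2 (0.396) lie above it.

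That library was extreme for several of the genes. Stat5a was 21.5 normalised CPM in it against a mean of 46.2 in the other SETBP1 libraries, and Stat5b was 33.4 against 64.9. Only 8.4% of genes were lower in it than Stat5a by this ratio, and 10.7% were lower than Stat5b. Socs1 was high there, at 98.7 against 60.02, and Osm at 74.4 against 48.0. Stat3, at 112.8 against 143.9, had a log2 ratio of -0.351, beside a median of -0.358 for the longest bin, which holds it. The part of exon length in these values was not tested.

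Normalised CPM below are scaled with TMM factors (the trimmed mean of M-values, a correction for library composition). Each log2 fold change comes from edgeR's quasi-likelihood test, with p adjusted by Benjamini-Hochberg over all 10993 genes and a threshold of 0.05. Its standard error (SE) was derived as the absolute log2 change divided by the square root of the test's F statistic. With NRAS against empty 4 of 10 were past the threshold, Osm higher and Socs2, Pim1 and Pim2 lower, where 32.5% of all genes were past it in either direction (17.0% higher, 15.5% lower). The median log2 change of the 10 was -0.27, against -0.0075 for all genes, and 8 of 10 were lower, where 50.8% of all genes were. Without SETBP1 replicate 3 the count was 8 of 10, 1 higher and 7 lower, beside 47.3% of all genes. With SETBP1 against empty 1 of 10 was past the threshold, Stat3, which was lower (14.9% of all genes in either direction, 8.31% higher and 6.55% lower). That count was 2 without SETBP1 replicate 3, when Pim2 joined it (15.6% of all genes).

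With both against empty 6 of 10 were past the threshold, Osm higher and Cish, Socs2, Stat3, Pim1 and Pim2 lower, where 40.6% of all genes were (20.8% higher, 19.8% lower). Without SETBP1 replicate 3 it was 9, with Socs3 the exception (53.9% of all genes). With both against SETBP1 3 of 10 were past it, Osm higher and Socs2 and Pim1 lower, beside 42.4% of all genes (20.9% higher, 21.5% lower). With NRAS against SETBP1 there were 4, with Socs1 lower as well, beside 40.9% (20.8% higher, 20.1% lower). For both against NRAS there were 0 of 10 (1.91% of all genes, 0.528% higher and 1.38% lower); by unadjusted p under 0.05 there were 4 of 10 (11.7% of all genes), and DESeq2 called 1 and limma-voom 0. The 3 libraries of each group did not overlap for 5 of 10 genes in SETBP1 against empty (33.2% of all genes), 8 in NRAS against empty (56.3%) and 9 in both against empty (61.2%). They did not overlap for 5 in both against SETBP1 (48.8%) and 3 in NRAS against SETBP1 (48.4%). These counts were not tested against those of all genes. The comparisons against empty share the empty libraries and are not independent of each other.

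**Figure D2:**
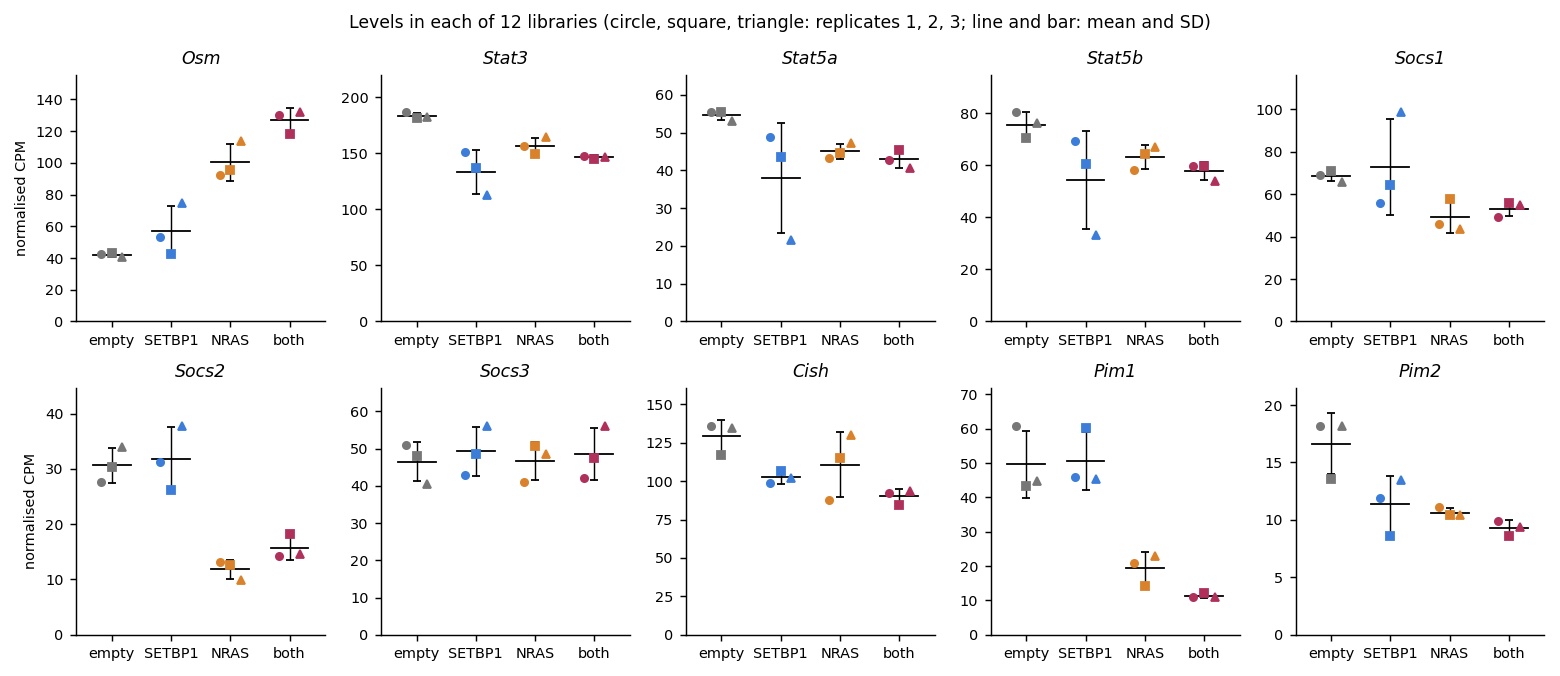
Normalised CPM (vertical axis, from 0) of the 10 genes in each library, by group (horizontal axis); symbols are replicates 1, 2 and 3, lines are means and bars are SD (n = 3). Osm is high in both groups with NRAS, Socs2 and Pim1 are low in them, and Socs3 lies between 40.6 and 56.2 in all 12 libraries.

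Osm, on chromosome 11 (GRCm38 chr11:4236420-4241026, plus strand), was the 1 gene of the 10 that rose. Its normalised CPM was 42.4, 43.3 and 40.8 in the empty libraries, 53.4, 42.6 and 74.4 with SETBP1, 92.2, 95.3 and 113.8 with NRAS, and 130.4, 118.4 and 131.9 with both. Every library with NRAS was above every library without it, and the 3 libraries with both were above the 3 with NRAS alone. Against empty, Osm rose 2.38-fold with NRAS (log2 1.25, SE 0.159, adjusted p 4.55e-05) and 3.01-fold with both (log2 1.59, SE 0.160, adjusted p 3.38e-06). The NRAS change was of like size in cells with mutant SETBP1, at log2 1.16 (SE 0.157, adjusted p 5.85e-05) for both against SETBP1, or 1.40 without SETBP1 replicate 3. The difference between both and NRAS alone, log2 0.34 (SE 0.153), was not past the threshold (adjusted p 0.414). It was past it without SETBP1 replicate 3, at the same log2 0.34 (adjusted p 0.0286), and when only those 2 groups were fitted (adjusted p 0.0197). SETBP1 against empty gave log2 0.43 with overlapping groups (SE 0.16, adjusted p 0.0812), 0.19 without SETBP1 replicate 3 and 0.60 without SETBP1 replicate 2 (adjusted p 0.0203).

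Per kilobase of exon, with the length taken over all annotated isoforms, Osm went from 18.6 CPM per kb with empty vectors to 55.9 with both. On that scale Socs1 was the highest of the 10 in empty libraries, at 23.6, and Socs2 the lowest, at 3.21. In libraries with both, Osm was the highest and Socs1 followed at 18.3. Of the specific receptor chains for oncostatin M and its relatives, Osmr had 0 reads in all libraries. Lifr, the leukemia inhibitory factor receptor, was low in every group, between 0.843 and 5.97 normalised CPM, and fell by 1.49 in log2 with SETBP1 against empty (SE 0.398, adjusted p 0.0258).

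The 3 STAT genes lie side by side on chromosome 11: Stat5b at chr11:100780731-100850724 on the minus strand, Stat5a at chr11:100859351-100885169 on the plus strand, and Stat3 at chr11:100885098-100939540 on the minus strand (GRCm38). Stat5a and Stat3 overlap at their 3′ ends in the annotation. Stat5a and Stat5b are close copies, and of the 50-base windows of their annotated transcripts 8.52% for Stat5a and 10.98% for Stat5b also occur in another gene, mostly in each other. Reads there may be split, so the pair's separate values are uncertain to that extent.

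Stat3, the main transducer of interleukin-6 type cytokines, was highest with empty vectors. It measured 186.7, 181.5 and 182.7 normalised CPM there, 151.3, 136.6 and 112.8 with SETBP1, 156.2, 149.2 and 164.2 with NRAS, and 148.0, 144.9 and 146.9 with both. The lowest empty library was above every other library. Stat3 fell by 0.46 in log2 with SETBP1 (SE 0.0921, adjusted p 0.00807), and by 0.35 without SETBP1 replicate 3 (adjusted p 0.00244), so the call did not need that library. It was lost when only the SETBP1 and empty libraries were fitted (adjusted p 0.0959). With both against empty Stat3 fell by 0.33 (SE 0.092, adjusted p 0.0117). NRAS against empty gave -0.23 (SE 0.0918), with no overlap and an adjusted p of 0.0702. That was 0.00481 without SETBP1 replicate 3 and 0.0307 without SETBP1 replicate 1, and 5 of 21 alternatives put the change past the threshold. Without SETBP1 replicate 1, Stat3 was also past the threshold for both against SETBP1 (0.23, adjusted p 0.04) and NRAS against SETBP1 (0.33, adjusted p 0.00758), which it was not with all libraries.

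Stat5a and Stat5b, the transducers of interleukin-3, GM-CSF and erythropoietin signals, were also highest with empty vectors. Stat5a was 55.4, 55.4 and 53.2 normalised CPM with empty vectors, 48.9, 43.5 and 21.5 with SETBP1, 43.3, 44.7 and 47.2 with NRAS, and 42.7, 45.4 and 40.8 with both. Stat5b was 80.4, 70.4 and 76.1 with empty vectors, 69.4, 60.5 and 33.4 with SETBP1, 58.1, 64.4 and 66.9 with NRAS, and 59.7, 59.8 and 54.0 with both. For each of them, the empty libraries were above all others with no overlap. No comparison put either past the threshold with all 12 libraries. NRAS against empty was -0.28 for Stat5a (SE 0.206, adjusted p 0.329) and -0.26 for Stat5b (SE 0.19, adjusted p 0.321). Without SETBP1 replicate 3 the same changes had SEs of 0.0884 and 0.0891 and adjusted p of 0.0141 and 0.0216. For both against empty Stat5a (-0.35) and Stat5b (-0.39) were likewise past the threshold only without that library (adjusted p 0.00269 and 0.00117) or when only those 2 groups were fitted (0.00208 and 0.000407).

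With SETBP1 against empty, Stat5a was at -0.53 and Stat5b at -0.48 (adjusted p 0.0971 and 0.101). These sizes rested on SETBP1 replicate 3: without it they were -0.24 and -0.22 (adjusted p 0.105 and 0.144). The place of SETBP1 as the lowest group rested on it too: both against SETBP1 gave 0.18 for Stat5a and 0.09 for Stat5b with all libraries, and -0.11 and -0.17 without it, none past the threshold. Without SETBP1 replicate 1 the changes against empty were -0.75 and -0.69, past the threshold (adjusted p 0.0173 and 0.0159). Across the 12 libraries the log2 levels of Stat5a and Stat5b correlated at Pearson's r 0.979, and Stat3 with them at 0.894 and 0.899. These points share libraries, and SETBP1 replicate 3 is an extreme point for both STAT5 genes.

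Of the feedback inhibitors, Socs2 (chr10:95385362-95417180, minus strand, GRCm38), which encodes a brake on growth hormone and other STAT5 signals, had the largest change. It measured 27.6, 30.4 and 34.0 normalised CPM with empty vectors and 31.2, 26.1 and 37.9 with SETBP1. With NRAS it measured 13.1, 12.6 and 9.89, and with both 14.3, 18.2 and 14.5. The 6 libraries with NRAS were all below the 6 without, and those with NRAS alone were lowest. Socs2 was at 38.7% of its empty level with NRAS (log2 -1.37, SE 0.175, adjusted p 4.72e-05) and at 51.2% with both (log2 -0.96, SE 0.171, adjusted p 4.95e-04). With both against SETBP1 it fell by 1.02 (SE 0.171, adjusted p 3.52e-04). These 3 calls held under each of 21 alternatives. Between both and NRAS alone the log2 difference was 0.40, with no overlap, and the adjusted p 0.398.

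Socs1 (chr16:10782240-10785536, minus strand), which encodes a direct inhibitor of Janus kinases and is best known as a brake on interferon signals, was 69.0, 70.7 and 65.9 normalised CPM with empty vectors. It was 55.9, 64.2 and 98.7 with SETBP1, 46.0, 57.8 and 43.6 with NRAS, and 49.4, 55.7 and 54.8 with both. All 6 libraries with NRAS were below the empty ones. NRAS against empty gave log2 -0.48 (SE 0.176) at an adjusted p of 0.0502, just outside the threshold. The adjusted p was 7.37e-04 without SETBP1 replicate 3, 0.0222 without SETBP1 replicate 1 and 0.0352 without NRAS replicate 2, and 9 of 21 alternatives put the change past the threshold. With NRAS against SETBP1 Socs1 fell by 0.57 (adjusted p 0.0192), or by 0.29 without SETBP1 replicate 3 (adjusted p 0.0497), and the groups overlapped. That call was lost without NRAS replicate 1 (0.0663), without NRAS replicate 3 (0.0775) and when only those 2 groups were fitted (0.0845). With both against empty the change was -0.36 (adjusted p 0.116, or 0.00561 without SETBP1 replicate 3), and with both against SETBP1 -0.45 (adjusted p 0.0512, or 0.236 without that library). The last of these was past the threshold in 6 of 21 alternatives. They were the fits without SETBP1 replicate 1 (0.00797) or SETBP1 replicate 2 (0.0427), DESeq2 (0.0378), library size alone (0.0185), upper-quartile scaling (0.0291) and no low-count filter (0.0475).

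Socs3 (chr11:117966079-117970047, minus strand), which encodes the main brake on gp130 and G-CSF receptor signals, stayed within a narrow range. Its values were 50.9, 48.0 and 40.6 normalised CPM with empty vectors, 43.0, 48.5 and 56.2 with SETBP1, 41.0, 50.6 and 48.4 with NRAS, and 42.1, 47.5 and 56.0 with both. The 4 groups overlapped. NRAS against empty gave log2 0.0034 (SE 0.141, adjusted p 0.988), with an approximate 95% interval of -0.272 to 0.279. Both against empty gave 0.06, with an interval of -0.216 to 0.336. Changes of a size inside those intervals could not be told from none.

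Cish (chr9:107296026-107302784, plus strand) encodes CIS, an inhibitor that competes with STAT5 for the receptor. Among the 8 members with a promoter in the RefSeq table for GRCm38.p6 (11 windows, from 250 bases before to 50 after each start), the letters TTCNNNGAA, the core that STAT dimers recognise and that reads the same on both strands, occurred in Cish and Socs3 only. The windows of the other 6 genes held none, and 8.3% of all 32851 promoter windows held at least 1. Cish held a pair, as 0.46% of all windows did. The stretches that hold it are shown because these are the members whose promoters carry the letters, with the fixed letters of the core in capitals. Cish lies at chr9:107296655-107296682 (plus strand) and Socs3 at chr11:117969508-117969524 (minus strand).
Cish: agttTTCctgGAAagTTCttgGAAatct
Socs3: agccTTCttaGAAggga
The Cish cores begin at bases 1 and 12 after the RefSeq start, and the Socs3 core begins 154 bases before its own. The first bases after that Socs3 start were not found in a GENCODE transcript of the gene, while those of Cish were. The match describes letters only, and no binding was measured.

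Cish was 136.2, 117.2 and 134.3 normalised CPM with empty vectors and 98.8, 106.9 and 101.9 with SETBP1. It was 87.6, 115.1 and 129.7 with NRAS and 92.2, 84.5 and 93.5 with both. The empty libraries were above those with SETBP1 and those with both, and the NRAS libraries were spread widely, from within the range of both to within that of empty. With both against empty Cish fell by 0.52 (SE 0.121, adjusted p 0.0034), a call that held under each of 21 alternatives. SETBP1 against empty gave -0.33 (adjusted p 0.0725), which was past the threshold only without NRAS replicate 1 (0.0324), a library of neither group. NRAS against empty gave -0.22 (adjusted p 0.176), or -0.36 without NRAS replicate 3 (adjusted p 0.0403). The annotation places antisense and pseudogene transcripts over Cish, and 9.35% of its 50-base windows occur in another gene's transcripts. The counting's use of strand is not given in the sources used here, so those reads cannot be told apart.

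Of the Pim kinases, Pim1 (chr17:29490753-29496112, plus strand) was 61.0, 43.3 and 44.8 normalised CPM with empty vectors and 46.0, 60.4 and 45.3 with SETBP1. It was 20.9, 14.3 and 23.1 with NRAS and 10.9, 12.03 and 10.9 with both. Each library with NRAS was below each without, and the 3 with both were below the 3 with NRAS alone. Against empty, Pim1 was at 39.1% with NRAS (log2 -1.35, SE 0.187, adjusted p 9.56e-05) and at 22.7% with both (log2 -2.14, SE 0.197, adjusted p 1.50e-06). With both against SETBP1 it fell by 2.16 (SE 0.197, adjusted p 1.68e-06). SETBP1 alone left it at log2 0.02 (SE 0.177, adjusted p 0.943). An antisense gene shares exon bases with Pim1, and 8.78% of the 50-base windows of Pim1 occur in it.

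Pim2 (chrX:7878262-7883432, plus strand) had the lowest mean of the 10 in each group. It measured 18.1, 13.6 and 18.2 normalised CPM with empty vectors, 11.9, 8.62 and 13.5 with SETBP1, 11.1, 10.4 and 10.4 with NRAS, and 9.93, 8.58 and 9.42 with both. All 9 libraries with a mutant were below the 3 empty ones. Pim2 fell by 0.84 with both (SE 0.19, adjusted p 0.00294) and by 0.65 with NRAS (SE 0.188, adjusted p 0.017). The NRAS call was lost in each fit without empty replicate 1 (0.0685), empty replicate 3 (0.0668), NRAS replicate 2 (0.0563) or NRAS replicate 3 (0.0523). SETBP1 against empty gave -0.55 (adjusted p 0.0606). It was past the threshold without SETBP1 replicate 3, at -0.69 (adjusted p 0.0176), and without empty replicate 2, at -0.68 (adjusted p 0.0493). The same held with DESeq2 (0.0483) and with library size alone (0.0402), and in none of the rest of the 21 alternatives.

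Pim3, the third kinase of the family, is not among the 10. It was 73.0, 69.6 and 67.1 normalised CPM with empty vectors, 66.4, 64.0 and 72.4 with SETBP1, 384.4, 514.3 and 496.1 with NRAS, and 480.7, 458.6 and 459.3 with both. With NRAS against empty Pim3 rose by 2.73 in log2 (SE 0.104, adjusted p 4.65e-10). Against empty, the libraries with NRAS held less Pim1 and Pim2 and more Pim3. The plot of the Pim kinases shows no overlap for any of the 3 between NRAS and empty. Against SETBP1, Pim2 was at log2 -0.096 with NRAS (SE 0.191, adjusted p 0.718) and at -0.29 with both (SE 0.193, adjusted p 0.248). Neither was past the threshold, and the groups overlapped.

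**Figure D3:**
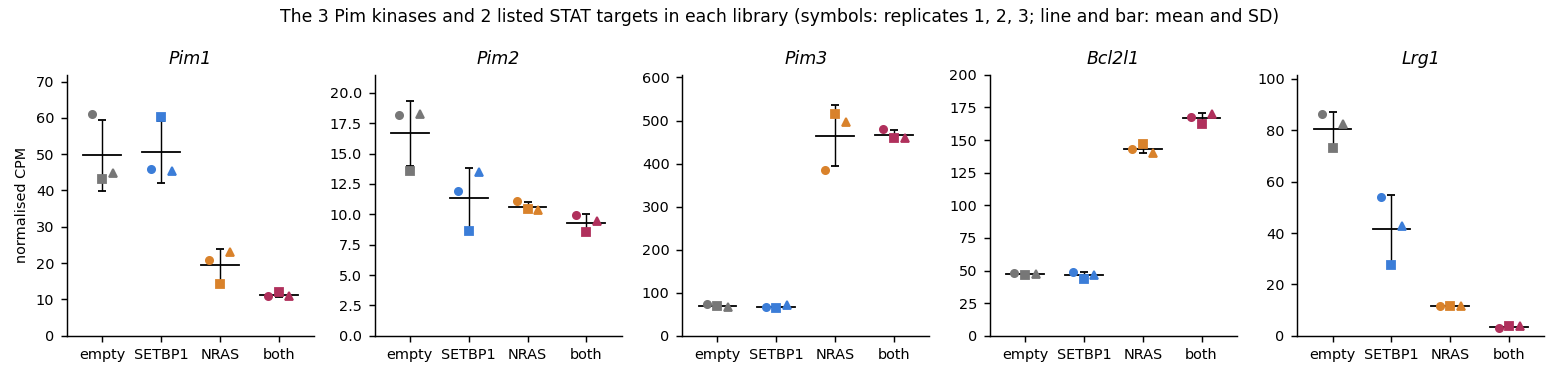
Normalised CPM (vertical axis, from 0, with its own scale in each panel) of Pim1, Pim2, Pim3, Bcl2l1 and Lrg1 in each library, by group; symbols are replicates, lines are means and bars are SD (n = 3). Pim3 and Bcl2l1 are high in the 6 libraries with NRAS, and Pim1 and Lrg1 are low in them.

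Both against NRAS asks what mutant SETBP1 added in cells with mutant NRAS. Pim1 had the largest change of the 10, at log2 -0.78 (SE 0.204, adjusted p 0.072), with groups that did not overlap. It was past the threshold without SETBP1 replicate 3 (-0.79, adjusted p 0.0126), without NRAS replicate 2 (-0.96, adjusted p 0.0347), with only those 2 groups (0.0103), with DESeq2 (0.0146) and with no low-count filter (0.046). Osm and Socs2 were at 0.34 and 0.40, also without overlap, and Stat3 and Pim2 were at -0.09 and -0.19 without overlap. Of all genes, 25.2% did not overlap between these groups, against 5 of 10 here.

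The interaction compares the SETBP1 change with NRAS to the one without it. It was past the threshold for 0 of 10 genes in edgeR, DESeq2 and limma-voom, where 0.0455% of all genes were past it in edgeR. By unadjusted p under 0.05 there were 2 of 10, beside 12.9% of all genes. Pim1 was at log2 -0.81 (SE 0.27, adjusted p 0.284, and 0.0962 to 0.53 over 20 alternatives) and Stat3 at 0.37 (SE 0.13, adjusted p 0.31). For the changes brought by NRAS, the values without and with mutant SETBP1 were -1.35 and -2.16 for Pim1, -1.37 and -1.02 for Socs2, and 1.25 and 1.16 for Osm. The interaction is the test of each such pair.

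**Figure D4:**
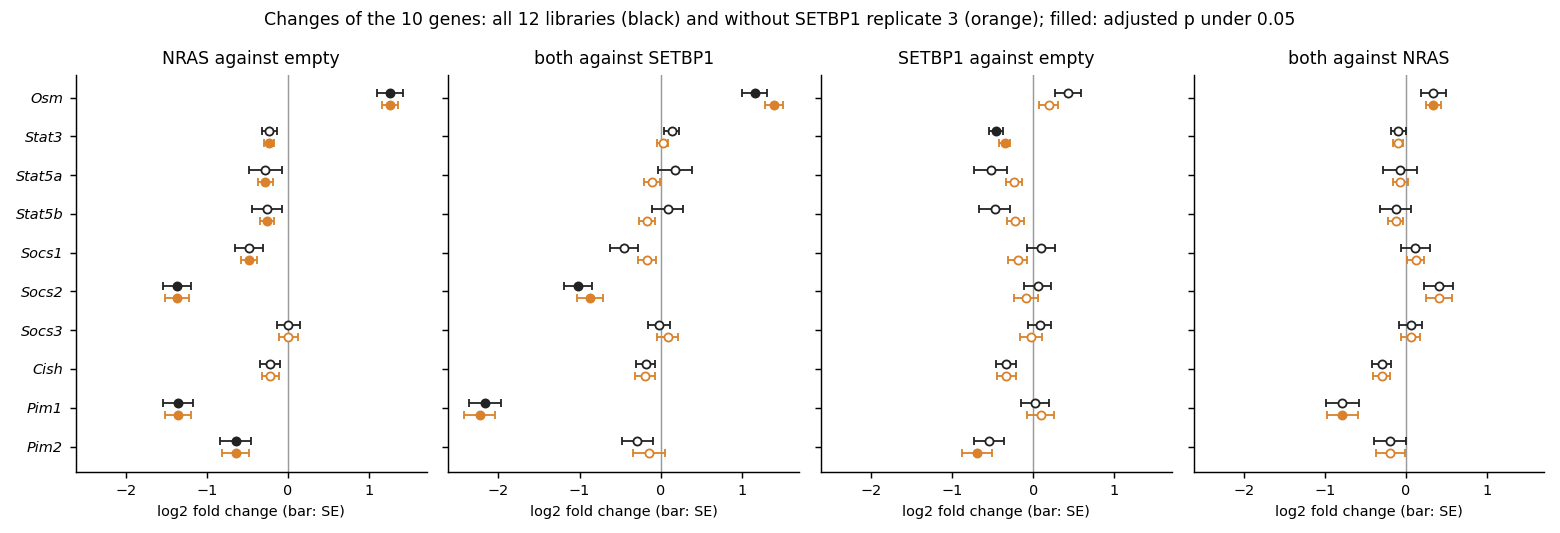
Log2 fold change with SE (horizontal axis) of the 10 genes in 4 comparisons, fitted to all 12 libraries (black) and without SETBP1 replicate 3 (orange), with filled points past an adjusted p of 0.05. Errors of the STAT genes and Socs1 shrink without that library, and Osm, Socs2 and Pim1 are past the threshold in both fits for NRAS against empty and both against SETBP1.

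Other genes of the pathway were taken from lists of 75 genes, of which 68 passed the filter. With NRAS against empty, 17 were higher and 15 lower, 47.1% of those tested beside 32.5% of all genes. Without SETBP1 replicate 3 that was 21 higher and 25 lower, beside 47.3% of all genes. With SETBP1 against empty 9 were higher and 8 lower (14.9% of all genes were past the threshold), or 4 and 9 without that library (15.6%). For both against NRAS there was 1 in each direction (1.91% of all genes), or 6 higher and 5 lower without that library (7.60%). Of the 4 Janus kinases, which phosphorylate the STATs, 2 were lower with SETBP1: Jak2 fell by 1.02 (SE 0.142, adjusted p 0.00147), from 139.3 ± 6.86 to 68.8 ± 6.90 normalised CPM (SD, n = 3), and Jak1 by 0.60 (SE 0.138, adjusted p 0.0151), or by 0.42 without SETBP1 replicate 3. With NRAS 1 of 4 was lower, Tyk2, which fell by 0.53 (adjusted p 0.00439), and 3 of 4 were lower without SETBP1 replicate 3. Among the 4 other STATs, Stat6 fell by 0.28 with SETBP1 (adjusted p 0.0159), and with NRAS Stat4 was higher by 0.39 (adjusted p 0.0477) and Stat2 lower, at -0.32 (adjusted p 0.027). Of the 4 other SOCS genes 1 was past the threshold with NRAS, Socs6, which rose by 0.50 (adjusted p 0.0109), and 2 were higher without SETBP1 replicate 3.

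Receptors that signal through STAT5 or STAT3 moved both ways with NRAS: 6 of 13 were lower and 1 higher, where 15.5% of all genes were lower and 17.0% higher. Without SETBP1 replicate 3, 8 were lower and 1 higher, beside 47.3% of all genes in either direction. Il2ra, the alpha chain of the interleukin-2 receptor, fell by 3.01 (SE 0.627, adjusted p 0.00223), from between 47 and 61 reads in an empty library to between 3 and 12. Il7r, the interleukin-7 receptor, rose by 1.78 with NRAS (SE 0.291, adjusted p 3.77e-04) and by 1.15 for both against NRAS (SE 0.251, adjusted p 0.0315), the 1 receptor past the threshold there. With SETBP1 3 receptors were higher, Il7r by 1.05 and Il10rb by 0.48 among them, and 1 was lower, Csf2rb, the common beta chain, at -0.30 (adjusted p 0.03). Of all genes, 8.31% were higher and 6.55% lower with SETBP1. Without SETBP1 replicate 3 none of the 3 that were higher stayed past the threshold, Il7r at an adjusted p of 0.0863 and Il10rb at 0.0581. Besides Osm, 1 of 4 tested cytokines that act through gp130 passed the test with NRAS, Clcf1, at 1.54 (adjusted p 0.0317). Its reads were few, 5, 17 and 10 in the empty libraries and 47, 21 and 21 with NRAS. Of the 4 tested receptors of the gp130 family 1 was lower with NRAS, Il11ra1, at -0.28 (adjusted p 0.044), and 3 were lower without SETBP1 replicate 3.

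The 13 other brakes on the pathway included 4 higher and 1 lower with NRAS, or 4 higher and 4 lower without SETBP1 replicate 3. Of all genes, 17.0% were higher and 15.5% lower with NRAS, and 47.3% were past the threshold without that library. Usp18, a brake on interferon signals, rose by 1.15 (adjusted p 0.00293) and Sh2b3, the adaptor LNK, by 0.60 (adjusted p 0.00529), while Ptpn1, a tyrosine phosphatase that acts on Jak2, fell by 0.75 (SE 0.0848, adjusted p 1.60e-05). With SETBP1 the 1 brake past the threshold was Dusp1, higher by 1.22 (adjusted p 0.00918), where 14.9% of all genes were past it. Of 22 reported targets of STAT5 or STAT3, 8 were higher and 6 lower with NRAS (17.0% and 15.5% of all genes). Without SETBP1 replicate 3 it was 11 and 7, beside 47.3% of all genes in either direction. Bcl2l1, which encodes the survival protein BCL-XL, rose from 47.5 ± 0.925 to 143.5 ± 3.30 normalised CPM, a log2 change of 1.59 (SE 0.0735, adjusted p 3.98e-09). Lrg1, an acute-phase and neutrophil granule gene, fell from 80.6 ± 6.64 to 11.5 ± 0.110 (log2 -2.81, SE 0.199, adjusted p 2.07e-07), and again to 3.56 ± 0.421 with both (log2 -1.69 against NRAS, SE 0.25, adjusted p 0.00332). Timp1 had 0 to 2 reads in an empty library and 19 to 22 with NRAS. With SETBP1, Junb rose by 1.02 (adjusted p 3.44e-04), Cebpb by 0.69 (adjusted p 0.0432, and 0.0765 without SETBP1 replicate 3), and Lrg1 and Gfi1 fell by 0.96 and 0.44. Many of these genes answer to other pathways too, and the members of the list moved both ways.

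Marker levels of other cell types moved with the same groups. In bulk RNA, fewer cells of a type and less RNA per cell cannot be told apart. The summed level of 10 late neutrophil markers was 11190 to 12620 normalised CPM with empty vectors, 5136 to 7326 with SETBP1, 5868 to 7523 with NRAS and 1986 to 2489 with both. Past the threshold, these markers moved both ways with NRAS against empty, 2 higher and 5 lower (17.0% and 15.5% of all genes). With NRAS against SETBP1 5 were higher and 4 lower (20.8% and 20.1%). With SETBP1 and with both against empty 8 were lower and 0 higher, where 6.55% and 19.8% of all genes were lower. For both against NRAS it was likewise 8 lower and 0 higher, where 1.38% of all genes were lower. The 6 markers of myeloid progenitors (such as Mpo and Elane) were at 23690 to 26310, 17460 to 19300, 9508 to 10870 and 5494 to 6141 in empty, SETBP1, NRAS and both. With NRAS and with both against empty 5 were lower and 1 higher, where 15.5% and 19.8% of all genes were lower. With SETBP1 against empty 1 was lower and 0 higher (14.9% of all genes were past the threshold), with a median log2 change of -0.132. The 10 markers of mast cells and basophils were at 3138 to 3228, 1698 to 2433, 733 to 1240 and 409 to 596 in empty, SETBP1, NRAS and both, and 0 of these 10 were at 0 in any group. The 9 monocyte and macrophage markers were at 4372 to 4822, 4974 to 6567, 3692 to 4071 and 3584 to 3897. Past the threshold, their members followed the sum with SETBP1 against empty, 5 higher and 0 lower (8.31% and 6.55% of all genes). They also did with NRAS against empty, 0 higher and 4 lower (17.0% and 15.5%). They did not for both against empty, with 2 higher and 1 lower (20.8% and 19.8%) and a median log2 change of 0.221. For both against NRAS, where the sums overlapped, 4 were higher and 1 lower (0.528% and 1.38%). Eosinophil marker sums were 191.9 to 333.9, 14.8 to 239.4, 133.1 to 264.3 and 26.6 to 109.8, with SETBP1 replicate 3 the lowest, and megakaryocyte sums were 203.7 to 240.7, 284.4 to 617, 139 to 197.8 and 240.5 to 268.4, with that library the highest. Of the 5 megakaryocyte markers, 1 was higher and 3 lower for both against empty (20.8% and 19.8% of all genes). Their median log2 change was -1.82, against the direction of the sum. Sums over all 12 libraries ran from 7.94 to 21.6 for B cells, 4.34 to 10.7 for T cells and 72.8 to 279.9 for stromal cells, and 3 of 6 erythroid markers had no read in any library. The part of these cell types in the values of the 10 genes was not tested.

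For each of the 10, the genes with the most similar log2 levels over the 12 libraries were drawn from 9461 genes with a mean of at least 50 counts in some group. Likeness is Pearson's r over libraries that share groups and depth, given as a description. Osm was most like Lilrb4a (r 0.992), a leukocyte inhibitory receptor that went from 280.9 normalised CPM with empty vectors to 1212 with both, and Eif4e (0.991), the cap-binding translation factor. Pim1 was most like Nat8l (0.979) and Gstt2 (0.979), a glutathione transferase, and Pim2 like Mpp7 (0.951) and Dgka (0.946), a diacylglycerol kinase. Socs2 was most like Rcbtb2 (0.981), at 73.5, 78.6, 23.9 and 27.5 normalised CPM in empty, SETBP1, NRAS and both, and Slc36a2 (0.971), an amino acid transporter.

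Socs1 was most like Rab24 (0.960) and Tmem9b (0.955), Stat3 like Foxj2 (0.978) and Atp2a3 (0.971), a calcium pump, Stat5a like Ralgapa1 (0.983) and Ubr2 (0.982), and Stat5b like Ralgapa1 (0.984). The STAT genes were lowest in SETBP1 replicate 3, which is 1 of the 12 points. The likeness was weaker for Cish, with Slc45a3 (0.893) and Dpp4 (0.878), and weakest for Socs3, with Cltb (0.835) and Nsun4 (0.805). Among the 10 themselves, Pim1 and Osm ran in opposite directions (r -0.922), and Socs1 and Socs2 together (0.825).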

How the data were processed

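Total RNA was purified with a column kit for small samples and turned into sequencing libraries with a SMART-Seq kit, per the labels' protocols. The authors deposited raw whole-number counts by gene symbol in 1 table. The submitters' processing notes name STAR, DESeq2 and mm10. The counting tool, annotation and strand setting are not given in the sources used here.

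Genes were kept by filterByExpr (minimum count 10, minimum total 15), which left 10993 genes holding 99.9% of the counts. After TMM scaling, edgeR 4.0.16 (R 4.3.3) fitted a quasi-likelihood model of 4 group means to all 12 libraries. Its two-sided tests were corrected by the Benjamini-Hochberg method across every gene kept. Alternatives were DESeq2 1.42.0, limma-voom (limma 3.58.1), other scalings, no filter, only the groups compared, a replicate block, a threshold of 0.01 and leaving out each library in turn. Pathway counts without SETBP1 replicate 3 were added after seeing the data. The steps were tested on simulated counts. Gene positions and exon lengths come from GENCODE M21 (GRCm38, the assembly also called mm10), and promoters from RefSeq (GRCm38.p6).

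The 10 genes, the pathway and marker lists and the rule for named genes were chosen with earlier results of these data known. The rule names all 10, the 2 genes most like each, and up to 2 genes in each direction of each pathway list past the threshold for NRAS against empty, SETBP1 against empty and both against NRAS. Of the genes this rule names, 2 are not reported here.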

Additional observations from a re-analysis of the deposited data

How the results depend on the processing

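The log2 changes of the 10 genes were taken under 21 alternatives (20 for the interaction), which gave 1460 values. The threshold of 0.01 is among the alternatives and reuses the main fit, so there no direction could change and no call could be gained. Of the 1460 values, 1352 kept direction and side of the threshold, 49 came past it, 11 dropped out, and 48 that were never past it changed sign. No change past the threshold turned direction. Of all genes, both against NRAS called 210, against 379 with DESeq2, 883 with only those groups and 86 at 0.01. Both against SETBP1 called 4661, against 3083 with only those groups and 3043 at 0.01. NRAS against empty called 3576, or 2289 at 0.01, and NRAS against SETBP1 4495, or 2848 with only those groups and 2885 at 0.01. SETBP1 against empty called 1633, or 110 with only those groups and 379 at 0.01. The interaction called 5, or 81 with DESeq2, 3 with limma-voom, 14 with no filter and 1 at 0.01. Of the 10 genes, both against NRAS called 0, or 1 with DESeq2, 1 with no filter and 2 with only those groups. NRAS against empty called 4, or 8 with only those groups, when the count of all genes went from 3576 to 5261. SETBP1 against empty called 1, or 2 with DESeq2, 2 with library size alone and 0 with only those groups. Leaving out 1 library at a time, all genes called ran from 93 (without both replicate 1) to 836 (without SETBP1 replicate 3) for both against NRAS, while the interaction gave 1 when empty replicate 1 was dropped and 109 when SETBP1 replicate 3 was. For SETBP1 against empty the lowest was 398, with empty replicate 3 dropped, and the highest 3187, with SETBP1 replicate 1 dropped. Over the 10 genes the ranges were 0 to 2 for both against NRAS, 3 to 5 for both against SETBP1, 3 to 8 for NRAS against empty and 1 to 3 for SETBP1 against empty. Scaling by library size alone shifted the median log2 change of all genes by -0.12 in both against empty, and calls went from 2282 higher and 2180 lower to 1656 and 2908. NRAS against empty went from 1868 and 1708 to 1379 and 2265, both against SETBP1 from 2293 and 2368 to 1720 and 2888, and the interaction from 1 and 4 to 3 and 4. No pairing of the libraries by replicate number was seen: deviations of same-numbered libraries correlated at -0.127 to 0.124 over 18 pairs, and 2 of 12 libraries correlated best with their own number. With so few libraries a group, these values cannot exclude shared mice or batches. With a replicate block, 3339 genes were called for NRAS against empty and 164 for both against NRAS, and the calls of the 10 genes numbered 4 and 0. Pim2, at 8.58 to 18.2 normalised CPM, had the lowest mean of the 10 in each group, and Stat5a had an SE of 0.207 for SETBP1 against empty.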
